A study of Mus musculus with 4 samples.

Results

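The genes described here are 33 genes of the unfolded protein response (UPR) and of protein folding in the endoplasmic reticulum (ER), chosen by name from the 28032 features of the deposited tables that have an exon length. They comprise 4 sensors and transcription factors, 9 chaperones and co-chaperones, 2 lectin chaperones, 4 disulfide isomerases, 4 genes of the translocation channel, 5 of ER-associated degradation and 5 targets of the transcription factor ATF4. Their messenger RNA was counted in CD4+Foxp3+ regulatory T cells (Tregs), sorted by flow cytometry from C57BL/6 mice aged 8 weeks. The mice were wild type (WT) or deficient in Csnk2b (genotype Csnk2b-/-), which encodes the beta subunit of the kinase CK2, and the labels used here do not name the allele, a Cre driver or whether animals were pooled. Of the 4 libraries, replicate 1 of each genotype came from the spleen and replicate 2 from the tracheal lymph nodes, so each genotype and tissue had 1 library. Errors and p-values therefore rest on how unlike the genotype ratios of spleen and lymph node were, mostly as a spread shared across all genes. There were no replicate animals within a tissue. Values given as a pair are WT first, then Csnk2b-deficient.

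No gene of the 33 passed the test for a genotype change, and the levels in the spleen pair lay close together. Between the lymph node and spleen libraries, 17 of the 32 genes that could be tested differed, 9 higher and 8 lower in the lymph node, with chaperones, disulfide isomerases and degradation genes on both sides.

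The ER folds secreted and membrane proteins, and when unfolded protein builds up there, the membrane sensors IRE1 (gene Ern1), ATF6 and PERK (gene Eif2ak3) signal to the nucleus. IRE1 splices the Xbp1 messenger so that it encodes an active transcription factor, ATF6 is cleaved to release one, and PERK slows translation while favouring that of ATF4. XBP1 and ATF6 raise chaperones and degradation factors, and ATF4 raises genes of amino acid supply and of the stress-induced death pathway. The pathway is best known in lymphocytes for plasma cells, which secrete antibody and depend on XBP1.

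The known binding element of ATF6 with the factor NF-Y, the ER stress response element, is what joins many of these genes, so its sequence is shown for 5 of them. Promoters, from 250 bases before to 50 after the annotated start (RefSeq, GRCm38.p6), were found for 29 of the 33 genes. The element searched was CCAAT, 9 bases of any kind and CCACG, on both strands. It was present for 8 of the 29 genes (Calr, Canx, Creld2, Dnajc3, Hsp90b1, Hspa5, Pdia6 and Syvn1), compared with 39 of 32851 promoters of all genes, or 0.119%. The 29 are genes, each counted once, whereas the 32851 are promoter entries. Capitals mark the fixed bases of the element, which reads CGTGG and ATTGG where it lies on the opposite strand.
Hspa5 (chr2:34772005-34772063, plus strand): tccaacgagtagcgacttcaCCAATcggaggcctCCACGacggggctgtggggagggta
Hsp90b1 (chr10:86705513-86705571, minus strand): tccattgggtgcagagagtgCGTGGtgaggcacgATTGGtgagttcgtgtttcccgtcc
Calr (chr8:84847055-84847113, minus strand): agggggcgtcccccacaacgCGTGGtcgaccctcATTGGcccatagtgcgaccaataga
Pdia6 (chr12:17266471-17266529, plus strand): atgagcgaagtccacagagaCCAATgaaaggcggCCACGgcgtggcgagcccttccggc
Syvn1 (chr19:6046512-6046570, plus strand): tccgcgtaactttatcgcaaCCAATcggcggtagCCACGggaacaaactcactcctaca
The elements began 65 bases before the annotated start in Hspa5, 107 in Hsp90b1, which held another copy at 212, 162 in Calr, 98 in Pdia6 and 44 in Syvn1.

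A related element, ERSE-II (ATTGG, any base and CCACG, the last shared with the first element), was present in Herpud1 and Dnajb11 and in 0.0365% of all promoters. The C/EBP-ATF response element, to which ATF4 binds, was searched as TGATGNAA and was present in Asns, Chac1, Herpud1 and Trib3, and in 3.97% of all promoters. Herpud1 held both kinds, and Asns is shown as the amino acid response gene of the set. The shorter site TGACGTGG was present for 0 of the 29 genes and in 0.676% of all promoters.
Herpud1, ERSE-II (chr8:94386357-94386407, plus strand): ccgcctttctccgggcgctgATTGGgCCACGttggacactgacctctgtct
Herpud1, C/EBP-ATF element on the opposite strand (chr8:94386297-94386344, plus strand): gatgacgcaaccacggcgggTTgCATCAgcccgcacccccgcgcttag
Asns, C/EBP-ATF element (chr6:7693210-7693252, minus strand): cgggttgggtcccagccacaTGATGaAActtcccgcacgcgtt
A match describes these letters in this window and is not evidence of a bound site.

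The libraries held 4737814 to 6750695 exon reads, of which the 33 genes took 0.420% to 0.437%. Csnk2b itself had 649 and 667 exon reads in WT (spleen, lymph node), against 148 and 283 in Csnk2b-deficient Tregs, with an edgeR log2 fold change of -1.54 ± 0.26 (SE, n = 2 per genotype) and an adjusted p of 0.0658. The labels' protocols name a Trizol and TruSeq preparation for samples 1 and 2 and an RNeasy micro, SMARTer and Nextera XT preparation for samples 3 and 4, without naming the libraries. If these numbers follow the order of listing, tissue and kit cannot be told apart. Treg identity was checked with 8 markers, all with reads in the 4 libraries. Among them Cd3e, a CD3 chain of the T cell receptor complex, had 355 to 1109 CPM and Ikzf2 (Helios) 1112 to 1359 CPM. Here CPM is the exon read count scaled to a library of 1000000 reads after TMM normalization. Foxp3, the defining transcription factor of Tregs, had 811 and 374 CPM in spleen Tregs, with 570 and 123 in the lymph node. It was one of the genes called lower in Csnk2b-deficient Tregs (log2 fold change -1.66 ± 0.25, SE, n = 2 per genotype, edgeR adjusted p = 0.0375). That call was kept by DESeq2, limma-voom and with no filter, but lost with a filter at 5 CPM (edgeR adjusted p = 0.0591), with scaling by upper quartiles (0.0982) or median of ratios (0.298), and in every fit without a single library. It was also lost with no tissue term and on uniquely placed reads, where the log2 change was -0.71 (edgeR adjusted p = 0.9). Levels are given below as CPM per kilobase of exon, so that genes can be compared with each other.

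**Figure D1:**
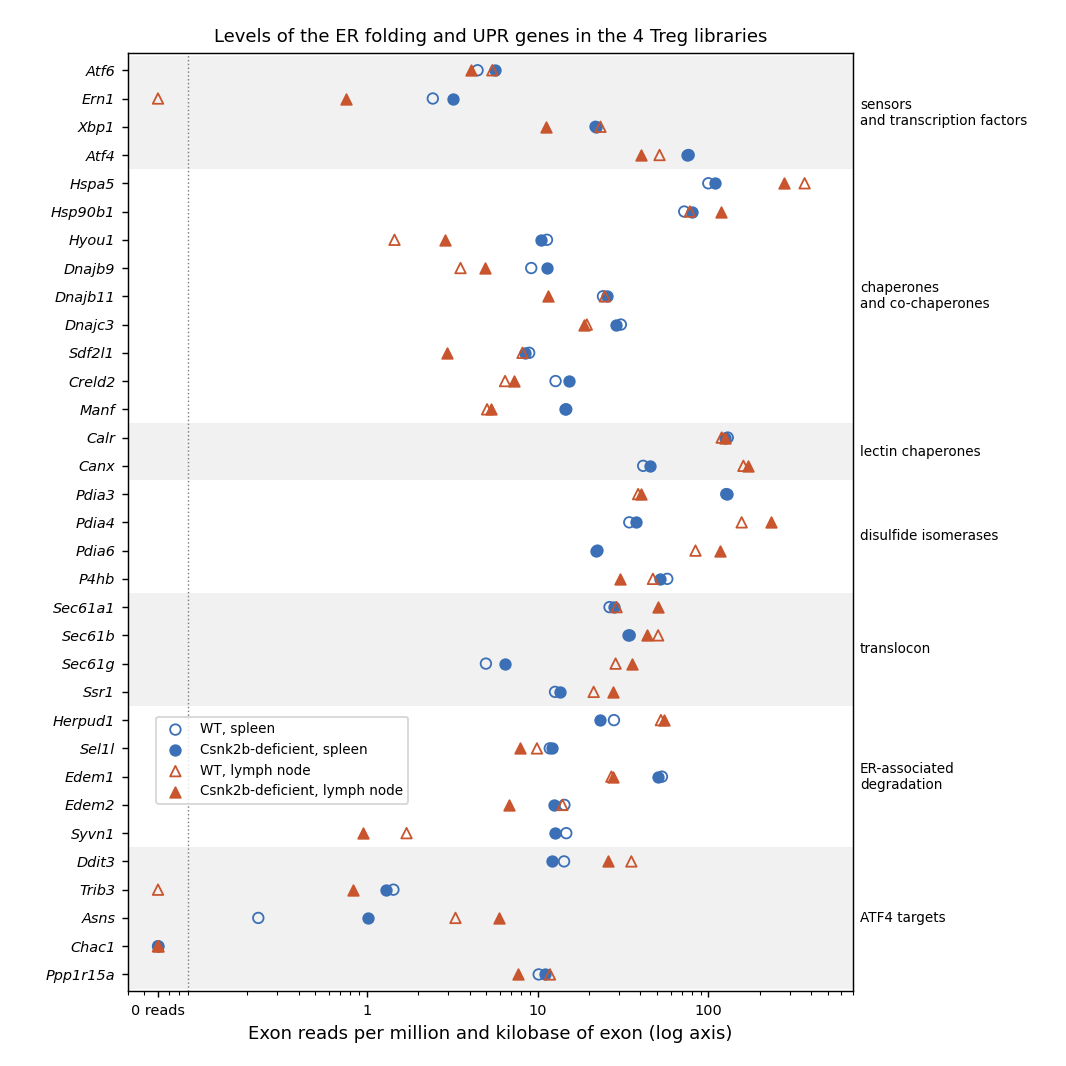
Levels of the 33 genes (rows, grouped by role) in the 4 libraries, as CPM per kilobase of exon on a log axis; blue circles are spleen, red triangles lymph node, open symbols WT and filled symbols Csnk2b-deficient, and symbols left of the dotted line had 0 reads. The spleen symbols of a gene lie close together except for Asns, while lymph node symbols sit to the right for Hspa5 and Canx and to the left for Pdia3 and Syvn1.

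The order of levels differed by tissue. In spleen Tregs Calr (130 and 126 CPM per kilobase) and Pdia3 (127 and 128) led, ahead of Hspa5 (99.9 and 109). In the lymph node Hspa5 led (366 and 278), ahead of Canx (160 and 170) and Pdia4 (157 and 233), while Pdia3 was at 38.8 and 40.5. At the low end, as means over the libraries, were Ern1 at 1.60, Trib3 at 0.89 and Chac1 with 0 exon reads in every library. The order of the 33 levels was nearly the same within a tissue, with a Spearman coefficient across genes of 0.989 between the spleen libraries and 0.973 between the lymph node ones. Across tissues it was 0.797 to 0.821. Genes are not independent replicates, so these coefficients describe the libraries.

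By genotype, with tissue as a term, Csnk2b-deficient and WT Tregs differed in 0 of the 32 tested genes in edgeR's quasi-likelihood test, beside 0.144% of all 11113 genes tested (14 higher and 2 lower, and 4 and 0 with median-of-ratios scaling). At an unadjusted p below 0.05 there were 0 of the 32, beside 4.88% of all genes. DESeq2 and limma-voom also called 0 of the 32, beside 0.45% and 0.576% of all genes. Each had 1 of the 32 at an unadjusted p below 0.05, and the share of all genes at that p is not given here for them. The median log2 fold change of the 32 was -0.01, and that of all genes tested was 0.01. The SE of the genotype change ran from 0.18 to 1.75 with a median of 0.31, so changes of the size of these errors could not be resolved. Changes several times their SE could also go uncalled, as did that of Csnk2b (-1.54 ± 0.26, edgeR adjusted p = 0.0658). A result of 0 called genes thus leaves room for sizeable changes. The smallest adjusted p of the 32 was 0.89.

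**Figure D2:**
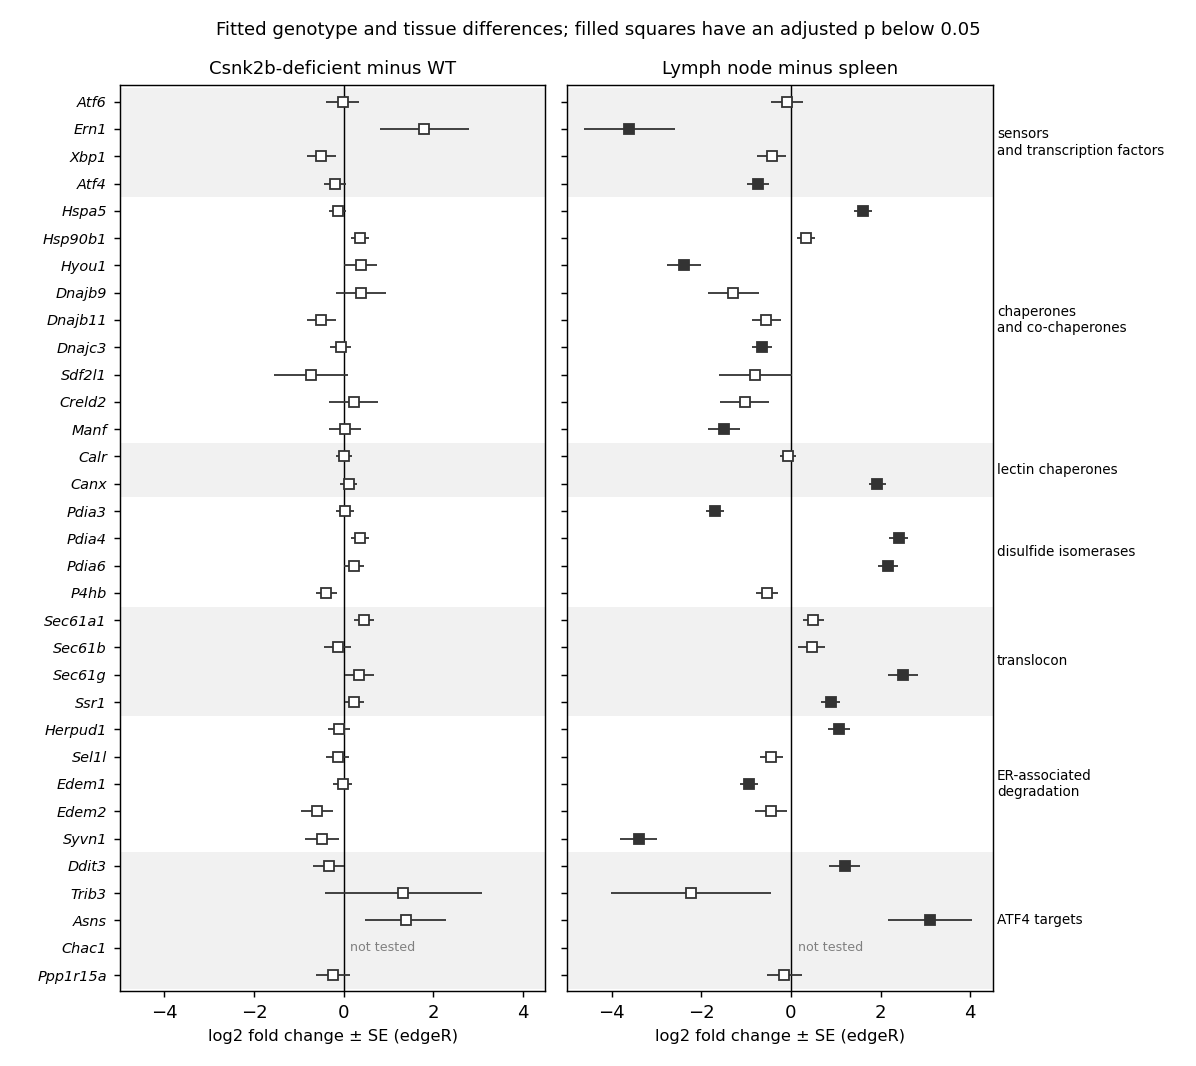
Fitted log2 fold changes with their SE for the 32 tested genes, Csnk2b-deficient minus WT on the left and lymph node minus spleen on the right; filled squares have an edgeR adjusted p below 0.05. There are 0 filled squares on the left and 17 on the right, of which 9 lie above and 8 below zero.

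Of the sensors, Atf6 had 4.45 and 5.66 CPM per kilobase in WT and Csnk2b-deficient spleen, and 5.44 and 4.08 in the lymph node. The genotypes overlapped, and the joint log2 change was -0.03 ± 0.37 (SE, n = 2 per genotype, edgeR adjusted p = 0.994). Ern1, which encodes IRE1, had 157 and 152 exon reads in spleen Tregs, with 0 and 28 in the lymph node. In the lymph node it was at least 8.37-fold higher in the Csnk2b-deficient library, against a floor of 3 reads in WT, while in the spleen the log2 ratio was 0.39. That WT library nevertheless had 10 reads within the Ern1 gene, all outside its exons. The joint change of Ern1, 1.8 ± 0.99 on the log2 scale, had an adjusted p of 0.89 and depends on how a count of 0 is treated.

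Xbp1, the target of IRE1, had 21.8 and 22.1 CPM per kilobase in spleen Tregs, with 23.3 and 11.3 in the lymph node. A single library, Csnk2b-deficient lymph node, thus lay below the other 3. The log2 ratio was 0.02 for spleen but -1.04 for lymph node, and its exact 95% binomial interval, -1.33 to -0.77, covers counting error only. The joint change was -0.50 ± 0.32 (SE, n = 2 per genotype, edgeR adjusted p = 0.89). Counts per gene do not separate the spliced from the unspliced messenger. Atf4 had 76.7 and 74.8 CPM per kilobase in spleen Tregs, with 51.7 and 40.1 in the lymph node, with a joint change of -0.20 ± 0.24.

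Among the chaperones, Hspa5, which encodes BiP, the ER's main Hsp70 and the partner that holds the sensors inactive, had 99.9 and 109 CPM per kilobase in the spleen. In the lymph node it had 366 in WT and 278 in Csnk2b-deficient Tregs. The pairs moved in opposite directions, with log2 ratios of 0.13 and -0.40, and each counting interval left out 0. The joint change was -0.14 ± 0.19 (SE, n = 2 per genotype, edgeR adjusted p = 0.937). Hsp90b1, the ER member of the Hsp90 family, had 72.2 and 79.7 CPM per kilobase in spleen Tregs, with 77.8 and 118 in the lymph node. The Csnk2b-deficient library was the higher one in both tissues, and the groups did not overlap. The joint change, 0.37 ± 0.20, had an adjusted p of 0.89, and 59.2% of the gene's reads were uniquely placed.

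Hyou1, a large Hsp70 relative that assists BiP, had 11.3 and 10.5 CPM per kilobase in spleen Tregs, but 1.45 and 2.88 in the lymph node, on 43 and 95 reads. Its log2 ratios were -0.11 and 0.96. Dnajb11, a J-domain partner of BiP, showed the reverse order, with 24.1 and 25.4 CPM per kilobase in spleen Tregs, with 24.8 and 11.5 in the lymph node. As for Xbp1, the Csnk2b-deficient lymph node library was the low one, with a log2 ratio of -1.10. Sdf2l1, which works with Dnajb11, had 8.93 and 8.43 CPM per kilobase in spleen Tregs, with 8.16 and 2.97 in the lymph node, the last on 15 reads.

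The remaining co-chaperones differed little by genotype. Dnajc3 (p58IPK), which dampens PERK, had log2 ratios of -0.09 and -0.05 in spleen and lymph node, and Manf, a secreted BiP cofactor, -0.02 and 0.08. Creld2, another secreted ER stress gene, had 0.26 and 0.16, and Dnajb9, a J-domain protein that restrains IRE1, 0.30 and 0.46, all with counting intervals that covered 0. The Manf count is uncertain, since its span overlaps Vprbp and Rbm15b and 66.5% to 82.9% of the reads in its span lay outside its exons. Of the 9 chaperones and co-chaperones, 3 were higher and 2 lower in both pairs, beside 3078 and 3241 of all 11113 genes tested.

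The lectin chaperones, which retain glycoproteins until they are folded, differed little by genotype. Calr had 130 and 126 CPM per kilobase in spleen Tregs, with 120 and 124 in the lymph node. Its joint change was 0.0049 ± 0.19 (SE, n = 2 per genotype, edgeR adjusted p = 0.997). Canx had 41.5 and 45.4 CPM per kilobase in spleen Tregs, with 160 and 170 in the lymph node, with a joint change of 0.11 ± 0.18. Its counting intervals lay just above 0 in both pairs (log2 0.01 to 0.24 in spleen and 0.01 to 0.16 in lymph node). Both genotypes thus gave like values within each tissue, whereas the tissues lay apart for Canx only.

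Of the disulfide isomerases, which form and rearrange disulfide bonds, Pdia3 had 127 and 128 CPM per kilobase in spleen Tregs, with 38.8 and 40.5 in the lymph node. Pdia4 had 34.4 and 37.8 in spleen Tregs, with 157 and 233 in the lymph node. Pdia6, which also acts on the sensors, had 22.4 and 21.9, and 84.0 and 116. P4hb, the founding member, had 57.4 and 52.4, and 47.3 and 30.2. In the lymph node pair Pdia4 and Pdia6 were higher in Csnk2b-deficient Tregs (log2 ratios 0.57 and 0.47) and P4hb lower (-0.65), while in the spleen pair the 4 ratios ran from -0.13 to 0.13. None was called, with joint changes of 0.36 ± 0.21 for Pdia4 and -0.39 ± 0.24 for P4hb (SE, n = 2 per genotype, edgeR adjusted p = 0.89 for both).

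Sec61a1, the pore of the translocation channel, stood apart in 1 library. Its levels were 26.4 and 28.2 CPM per kilobase in spleen Tregs, with 29.0 and 50.8 in the lymph node, so that the Csnk2b-deficient lymph node library stood above the other 3. The log2 ratios were 0.09 and 0.81, and the joint change was 0.45 ± 0.23 (SE, n = 2 per genotype, edgeR adjusted p = 0.89). Ssr1, a subunit of the translocon-associated complex, had ratios of 0.10 and 0.37. The small channel subunits Sec61b and Sec61g had -0.04 and -0.22, and 0.36 and 0.32. Only 8.14% of Sec61g reads and 55.6% of Sec61b reads were uniquely placed, so their counts may include reads of near-identical copies.

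In ER-associated degradation, which returns misfolded proteins to the cytosol, 0 of 5 genes were higher in both pairs and 2 were lower in both, Edem2 and Syvn1. Over all 11113 genes tested, 3078 were higher and 3241 lower in both pairs. Edem2, a mannosidase-like protein, had 14.4 and 12.5 CPM per kilobase in spleen Tregs, with 14.0 and 6.84 in the lymph node. Syvn1, the ubiquitin ligase HRD1, had 14.7 and 12.6, and 1.71 and 0.947, the last on 21 reads. Their joint changes were -0.61 ± 0.36 and -0.48 ± 0.38 (SE, n = 2 per genotype, edgeR adjusted p = 0.89 and 0.895). Edem1, Sel1l, the partner of HRD1, and Herpud1, a scaffold of the same complex, had joint changes of -0.03 ± 0.20, -0.14 ± 0.25 and -0.11 ± 0.25.

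Of the ATF4 targets, Trib3 and Chac1 were near the limit of detection. Asns, which makes asparagine, had 5 and 16 reads in spleen Tregs, with 37 and 74 in the lymph node. The Csnk2b-deficient library was the higher one in both tissues, at log2 ratios of 1.66 and 0.82, yet the groups overlapped because WT lymph node lay above Csnk2b-deficient spleen. Its joint change was 1.38 ± 0.90 (SE, n = 2 per genotype, edgeR adjusted p = 0.89). Trib3, a pseudokinase that inhibits ATF4, had 24 and 16 reads in spleen Tregs, with 0 and 8 in the lymph node, which is at least 2.39-fold against a floor of 3 reads. Chac1, which degrades glutathione, had 0 exon reads in all libraries, which allows up to 0.733 CPM in the shallowest one.

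Ddit3, the death-promoting factor CHOP, had 14.3 and 12.2 CPM per kilobase in spleen Tregs, with 35.4 and 26.0 in the lymph node. The Csnk2b-deficient library was lower in both tissues, with a joint change of -0.34 ± 0.35. The Ddit3 span overlaps Mars and Gm4189, and 22.7% to 48.1% of the reads in it lay outside its exons. Ppp1r15a (GADD34), which restarts translation and is also induced by cell handling, had 10.1 and 11.1, and 11.8 and 7.69, with a joint change of -0.24 ± 0.39. Beside it, the 12 immediate early genes had summed levels of 1465 and 810 CPM in WT (spleen and lymph node). In Csnk2b-deficient Tregs they had 1478 and 1130 CPM. The sum hides both directions, since 7 of the 12 were higher in the lymph node pair. The largest rises there in CPM were those of Klf6 (142 and 379) and Btg2 (416 and 520). Fos (28.1 and 14.5 CPM), Jun (10.3 and 5.70) and Dusp1 (58.4 and 18.2) were lower there in Csnk2b-deficient Tregs. Of the 12, edgeR, DESeq2 and limma-voom each called 0. At an unadjusted p below 0.05 they had 2, 1 and 2, beside 4.88% of all genes in edgeR. The part of the immediate early genes in the Ppp1r15a values was not tested.

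The spread of the genotype ratio differed between the pairs. In the spleen pair 1 of the 32 genes, Asns, had a log2 ratio over 0.5 in size, beside 14.6% of all genes tested. In the lymph node pair 14 of 32 did, beside 52.4% of all genes. The median size of the ratio was 0.12 and 0.45 for the 32 genes, and 0.17 and 0.53 for all genes. Counting intervals left out 0 for 6 genes above and 3 below in spleen Tregs, with for 11 above and 12 below in the lymph node. Over all genes the intervals left out 0 for 29.0% (spleen) and 63.2% (lymph node). The pairs had opposite signs for 13 of the 32 genes, beside 43.1% of all genes.

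**Figure D3:**
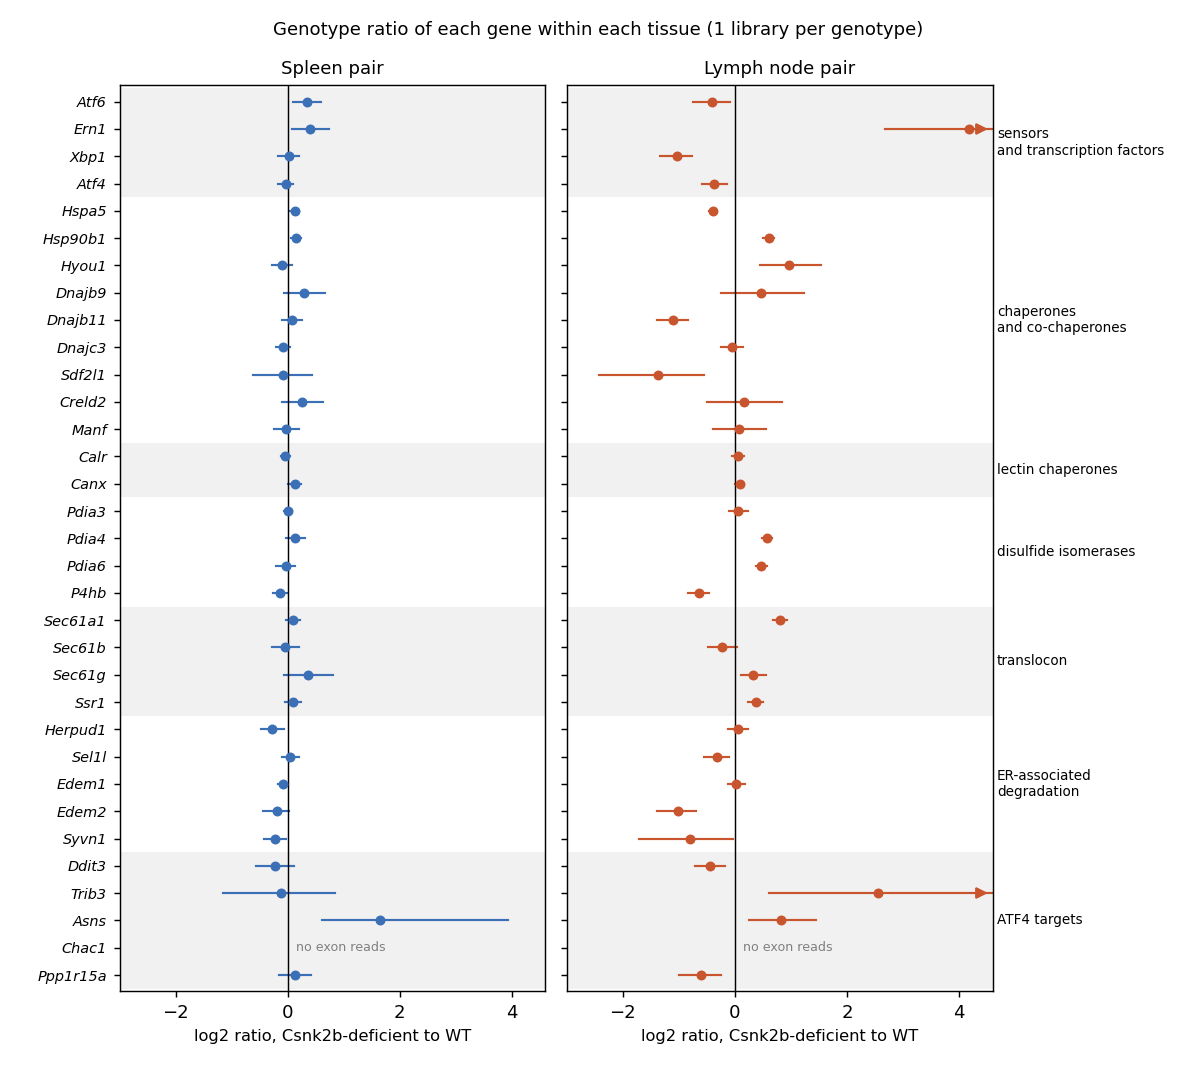
The log2 ratio of Csnk2b-deficient to WT for each gene in the spleen pair (left) and the lymph node pair (right), each from 1 library per genotype; bars are 95% exact binomial intervals that cover counting error only, and an arrow marks an interval with no upper limit. Spleen ratios lie within 0.39 of zero apart from Asns, and lymph node ratios run from -1.37 for Sdf2l1 to 0.96 for Hyou1 among genes with reads in every library.

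**Figure D4:**
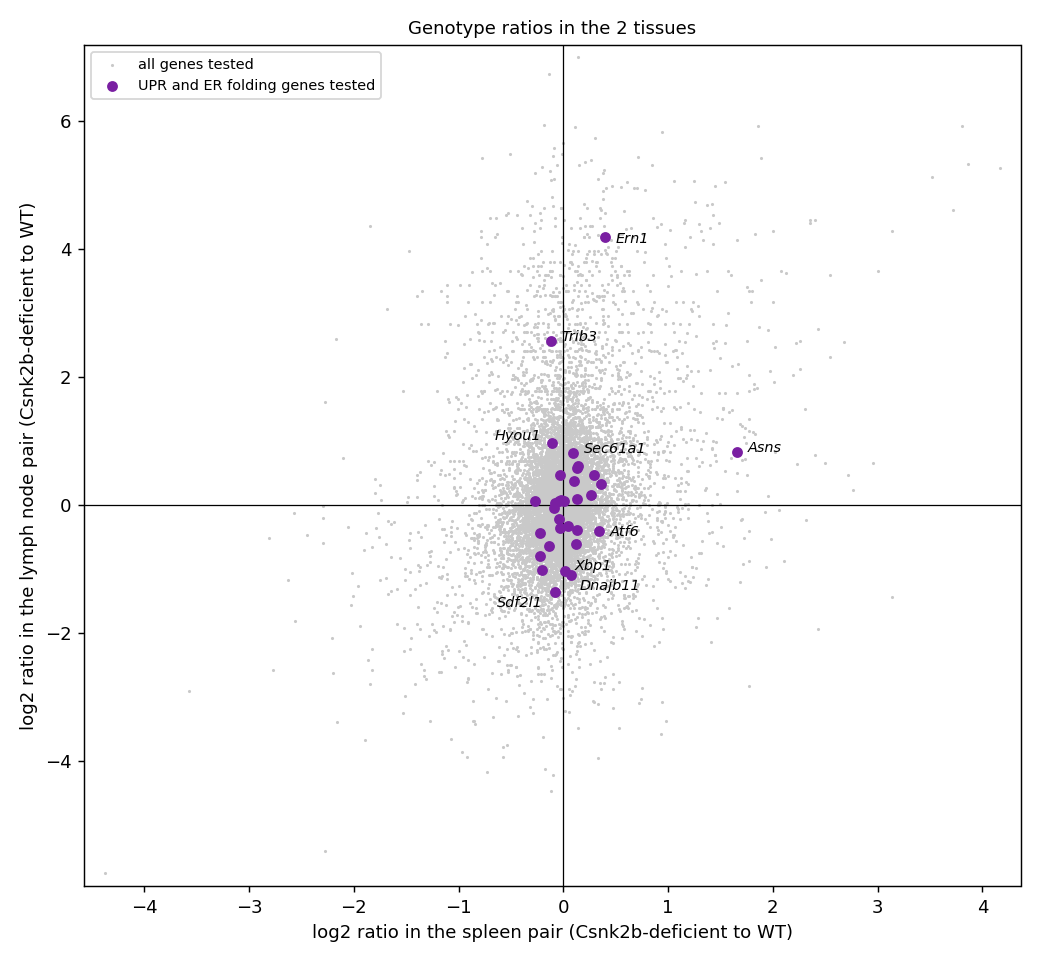
The lymph node ratio (vertical) against the spleen ratio (horizontal) for the 32 tested genes (purple) over all 11113 genes tested (grey), both as log2 of Csnk2b-deficient to WT. Apart from Asns, at 1.66 on the spleen axis, the purple points form a column that is narrow along the spleen axis and long along the lymph node axis, within the grey cloud.

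Markers of other cells moved with the lymph node pair. Of 10 plasma cell marker features with a row, 7 and 6 had reads in WT, against 8 and 9 in Csnk2b-deficient Tregs, and their summed level was 1104 and 2069 CPM in WT, against 1005 and 3134 CPM in Csnk2b-deficient Tregs (spleen and lymph node). Most of that sum was Ighm, at 873 to 2797 CPM in all libraries. Ighg1, an antibody heavy chain, had 0.244 CPM in WT and 172 CPM in Csnk2b-deficient lymph node, and Igj, the joining chain, 0 and 36.0 CPM. In the spleen both stayed at or below 1.21 CPM. Prdm1, which T cells also express, had 0 and 37.7 CPM in the lymph node pair. Other genes of the list were lower in the Csnk2b-deficient lymph node library, with Derl3 at 8.55 and 0.219, Pou2af1 at 12.2 and 4.38 and Irf4 at 127 and 82.2 CPM. The defining markers Sdc1 (CD138) and Tnfrsf17 (BCMA) were at 0.219 and 0 CPM in the Csnk2b-deficient lymph node library. The 14 myeloid and dendritic cell markers summed to 14.6 and 53.3 CPM in WT and 11.2 and 346 CPM in Csnk2b-deficient Tregs, led by Lyz2 at 283 CPM in the last. In the lymph node pair Lyz1 had 3.67 and 22.6 CPM, Cd68 0 and 13.8, Csf1r 0 and 8.33, Fcer1g 1.47 and 5.70, and Tyrobp 1.96 and 5.48. Itgam, Siglech and Itgax were also higher in the Csnk2b-deficient lymph node library, at or below 3.07 CPM. In that library Cd14 was at 0.219, and S100a8, S100a9, Flt3 and Clec9a were at 0. Lists that were lower there were the erythroid markers, at 0.507 and 70.4 CPM in WT, against 0.692 and 7.23 in Csnk2b-deficient Tregs, and the B cell markers, at 28.8 and 168 against 32.9 and 123. The CD8 and NK cell markers summed to 29.3 and 57.2 against 20.1 and 58.8 CPM, and the stromal markers to 149 and 225 against 103 and 249 CPM. Nearly all of the stromal sum was Pecam1, at 146 and 224 against 101 and 248 CPM. The other stromal markers were each at or below 2.28 CPM in every library. The part of such cells in the lymph node ratios of Sec61a1, Hsp90b1, Pdia4, Pdia6 and Hyou1 was not tested, and fewer cells of a type cannot be told apart from less RNA per cell.

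Other genes of the pathway, in 5 lists with 101 names, gave 90 tested genes, of which edgeR called 0 by genotype. At an unadjusted p below 0.05 edgeR had 5, or 5.56%, beside 4.88% of all genes tested. DESeq2 and limma-voom also called 0 of the 90, with 2 and 10 at an unadjusted p below 0.05. The share of all genes at that p is not given here for DESeq2 and limma-voom. The median log2 fold change of the 90 was -0.02. Of the 90, 22 were higher and 19 lower in both pairs, beside 3078 and 3241 of all 11113 genes tested. The 5 genes were the thioredoxin-related Tmx1 (0.58 ± 0.25), the BiP partner Dnajc10 (0.77 ± 0.30), the oligosaccharyltransferase subunit Rpn2 (0.64 ± 0.26), the segregase Vcp (-0.60 ± 0.25) and the ATF4 target Ddit4 (-0.67 ± 0.28), all with an edgeR adjusted p of 0.89 (SE, n = 2 per genotype). Tmx1 and Rpn2 are not among the genes named by rule and were singled out once their values were known. The third sensor, Eif2ak3, had 30.6 and 31.0 CPM in spleen Tregs, with 34.7 and 16.0 in the lymph node, the Csnk2b-deficient lymph node library again being the low one, and was likewise picked after seeing its values.

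The genes of those lists that were furthest from 0 in both pairs, chosen by a rule on the pair ratios, were taken up to 2 per list. Among sensors and processing enzymes these were Mbtps2, the site-2 protease that releases ATF6 (log2 ratios 0.22 and 1.63), and the amino acid sensor Eif2ak4 (0.18 and 0.37). Besides Dnajc10, the thioredoxin-related Tmx3 had 0.31 and 0.63. The signal peptidase subunit Sec11c had 0.23 and 0.46, and Srp19 of the signal recognition particle -0.26 and -0.24. In degradation they were Derl2 (0.15 and 0.35) and Vcp (-0.23 and -0.99), and among ATF4 targets Ddit4 (-0.58 and -0.78) and the mitochondrial folate enzyme Mthfd2 (0.30 and 0.36). The sign shared by both pairs was a condition of entry.

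The tissue comparison, lymph node minus spleen with genotype as a term, called 17 of the 32 genes, beside 45.4% of all genes tested. It called 9 higher, beside 23.3%, and 8 lower, beside 22.2%. The share of the set is near that of all genes, so the number called is not particular to these genes. The median log2 difference was -0.43 for the 32 genes and -0.17 for all. If kit and tissue coincide, these values describe the libraries and not the tissues alone.

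Among the chaperones and the isomerases the tissue values went both ways. Among the isomerases Pdia4 was 5.29-fold and Pdia6 4.46-fold higher in the lymph node libraries (log2 2.40 ± 0.22 and 2.16 ± 0.23, SE, n = 2 per tissue, edgeR adjusted p = 9.7e-06 and 2.52e-05), while Pdia3 was 3.22-fold lower (log2 -1.69 ± 0.20). P4hb, at -0.53 ± 0.24, was not called. Of the chaperones Hspa5 was 3.05-fold higher (log2 1.61 ± 0.19, adjusted p = 6.51e-05), and Hyou1 5.25-fold, Manf 2.80-fold and Dnajc3 1.56-fold lower. Canx was 3.80-fold higher, and Calr did not differ beyond its error (log2 -0.07 ± 0.19).

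In degradation the called genes went both ways, while in the remaining groups they shared a direction. The translocon genes Sec61g and Ssr1 were 5.64-fold and 1.85-fold higher in the lymph node libraries, and 0 of the 4 were lower. On uniquely placed reads Sec61g was no longer called (log2 1.30, edgeR adjusted p = 0.375). In degradation Herpud1 was 2.11-fold higher, whereas Syvn1 was 10.6-fold and Edem1 1.91-fold lower. The sensor Ern1 and the factor Atf4 were lower, Atf4 1.66-fold, and the ATF4 targets Asns and Ddit3 were 8.63-fold and 2.30-fold higher. The size of the Ern1 difference, -3.60 on the log2 scale (edgeR adjusted p = 0.0135), rests on a lymph node library with 0 reads, and was -1.88 without that WT library and -10.1 without the Csnk2b-deficient one. Without either spleen library, in a fit on tissue alone, Asns, Atf4, Ddit3, Dnajc3, Edem1, Ern1, Herpud1, Manf and Ssr1 lost their calls, while Canx, Hspa5, Hyou1, Pdia3, Pdia4, Pdia6, Sec61g and Syvn1 held in all 4 fits that left out 1 library.

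Base composition moved with the tissue difference. The GC content of the longest protein-coding transcript (GENCODE M21) had a median of 47.6% for the 9 genes higher in the lymph node libraries. It was 50.8% for the 8 lower genes, but 53.0% for the 15 that were not called. Over all genes tested with a GC value, 9428 of 11113, the medians were 47.6% for 2204 higher genes and 54.7% for 2225 lower genes. Across genes the Spearman coefficient of GC content with the tissue difference was -0.39 over those 9428 genes and -0.35 over the 32. With the genotype ratio of the spleen pair it was -0.16 and -0.52, and with that of the lymph node pair -0.05 and -0.27. Syvn1, at 57.4% GC, and Hyou1, at 53.8%, were among the lower genes, and Canx, at 42.2%, among the higher ones, but Pdia3, at 46.9%, was also lower. The part of base composition in these values was not tested.

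**Figure D5:**
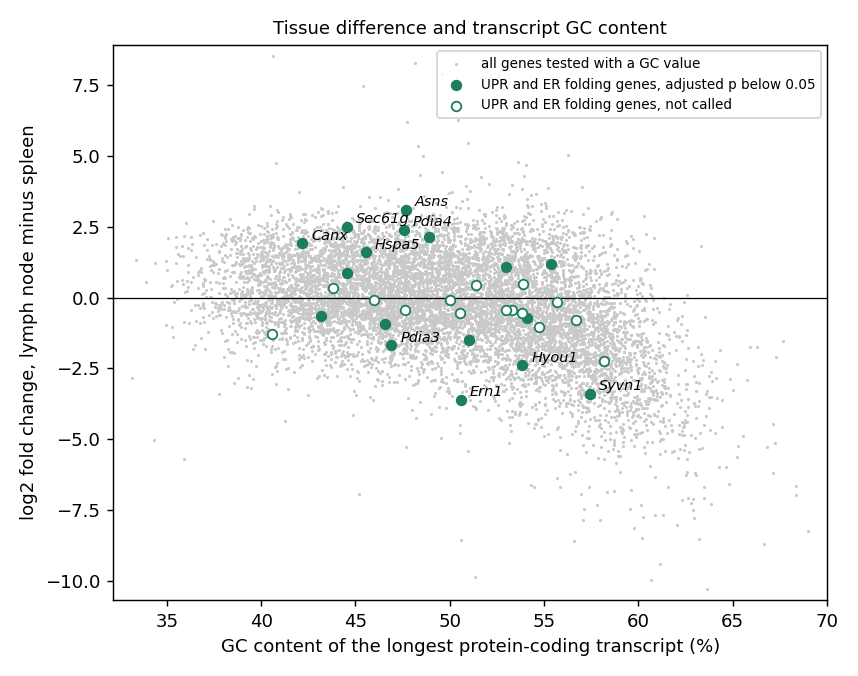
The tissue difference (log2 fold change, lymph node minus spleen) against transcript GC content in percent, for the 32 tested genes (green, filled where the adjusted p is below 0.05) over all tested genes with a GC value (grey). The cloud slopes down towards high GC content, and Syvn1 and Hyou1 lie low on its right while Canx lies high on its left.

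The genes that share the ER stress response element differed in direction among themselves. Of the 10 genes with that element or ERSE-II, all tested, the median genotype change was -0.03, compared with -0.08 for the 18 tested genes with a promoter and neither element. In the lymph node pair 6 of the 10 were higher in Csnk2b-deficient Tregs, beside 9 of the 18 and 5789 of all 11113 genes tested. Among the 6 were Hsp90b1 and Pdia6, and the others, such as Hspa5, Dnajb11 and Syvn1, were lower. Between tissues 4 of the 10 were higher in the lymph node libraries, including Hspa5 and Pdia6, and 2 were lower, Syvn1 and Dnajc3. Of the 18 genes with neither element 5 were higher and 4 lower, and of all genes tested 23.3% and 22.2%. The Hspa5 and Syvn1 promoters shown above thus both held the element, with tissue differences of opposite sign (log2 1.61 and -3.40). The median level was 50.4 CPM per kilobase for the 10 genes and 18.9 for the others, a difference that was not tested.

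Cytosolic chaperones gave a comparison outside the ER. Of 17 tested genes edgeR, DESeq2 and limma-voom each called 0 by genotype, with 0 at an unadjusted p below 0.05, and the median log2 fold change was -0.04. Between tissues 10 were higher and 2 lower in the lymph node libraries, beside 23.3% and 22.2% of all genes tested. Among the higher ones was Hspa8, the constitutive Hsp70, at 1326 and 1350 CPM in spleen Tregs, with 8145 and 7602 in the lymph node. Whether this list differed from the ER genes was not tested.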

How the data were processed

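Exon reads per gene were counted by the authors in 4 Treg libraries, and the deposited tables hold those counts for uniquely placed and for all reads, as their headers say (per the file headers). Per the submitters' processing notes, CASAVA 1.8.2 and mm9 were used. The aligner, annotation and strand setting were not given in the sources used here. Counts of overlapping genes are therefore uncertain. Total exon reads were used. Of 37583 features, 9551 without an exon length held 0 exon reads and were left out. The members, lists and tests were chosen with earlier results of these data known.

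All genes were fitted with edgeR 4.0.16 (R 4.3.3): filterByExpr by genotype, TMM factors, and a robust quasi-likelihood test with terms for genotype and tissue. Benjamini-Hochberg adjustment ran over 11113 genes, with a threshold of 0.05. The fit had 1 residual degree of freedom, against a median of 10.06 prior degrees of freedom from the spread shared across genes. Each SE is the absolute log2 change divided by the root of its F statistic. Replicate numbers pair the libraries, since the labels give both replicates 1 the spleen and both replicates 2 the lymph node, and deviations from genotype means correlated at 0.783 within a number. Ratios within a pair used a prior count of 2. Libraries of a pair differed by a chi-square of 7.95 (spleen) and 32.5 (lymph node) per degree of freedom, so none was a duplicate. Intervals and floors of 3 reads cover counting error only.

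Named were all 33 members. Of the other pathway lists, the rule took genes past the threshold and up to 2 per list with the largest smaller pair ratio, the same sign in both pairs and at least 10 CPM in 2 libraries. Alternatives were median-of-ratios and upper-quartile scaling, no filter, a filter at 5 CPM in 2 libraries, DESeq2 1.42.0, limma-voom (limma 3.58.1), uniquely placed reads, no tissue term, and single libraries left out. Promoters are from RefSeq and were searched on both strands.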

Additional observations from a re-analysis of the deposited data

Results flagged for a closer look

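In 13 of the 32 tested genes the genotype ratio was above 0 in one tissue and below 0 in the other. The difference between the tissues was not tested, since 1 library per genotype and tissue leaves no error for it. Opposite signs were also found in 43.1% of all genes tested. As the lymph node log2 ratio minus the spleen log2 ratio, the sensor Atf6 had -0.75 and the transcription factor Xbp1 -1.06. Of the chaperones, Hspa5 had -0.52, Dnajb11 -1.18, Hyou1 1.07 and Manf 0.10. Calr had 0.0998 and the isomerase Pdia6 0.505. In ER-associated degradation Herpud1 had 0.33, Sel1l -0.37 and Edem1 0.10. The ATF4 targets Trib3 and Ppp1r15a had 2.68 and -0.74, the first with 0 reads in WT lymph node. For Atf6 and Hspa5 the counting intervals of both pairs left out 0.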

How the results depend on the processing

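The count of the 33 genes called by genotype was 0 under every alternative, including the fit with no replicate block and the fits without single libraries. The fit with no replicate block called 0 of all 11113 genes, so it cannot show whether the pairing by tissue mattered for these genes. The count over all genes was 16, and it became 4 with median-of-ratios size factors, 111 with no filter, 50 with DESeq2, 64 with limma-voom, 7 on uniquely placed reads and 0 with no replicate block. Without single libraries, in fits on genotype alone that assume a lone library varies like the others, it was 0 to 1. The cause was not tested. The tissue difference called 15 to 18 of the 32 genes under the other alternatives, and 8 to 27 without single libraries, where the count over all genes ran from 2186 to 7874, compared with 5050. DESeq2 lost Atf4 and Dnajc3, and uniquely placed reads lost Sec61g. Upper-quartile scaling shifted the median tissue difference of all genes by -0.15 and called P4hb as well, no filter shifted it by -0.25, and limma-voom called Sec61a1. The sign of the genotype change was unstable without single libraries, where the genotypes hold the tissues in unequal number. It changed in at least 1 of the 4 fits for 29 of the 32 genes, and Edem2, Hsp90b1 and Sec61a1 were the 3 exceptions. The share of all genes with such a sign change is not given here, so the count cannot be called particular to these genes. The change went past its SE on both sides for Pdia4 and Syvn1. The changes of Pdia4 ran from -1.29 to 2.01 and those of Syvn1 from -3.14 to 2.02 without single libraries or pairs. Pdia4 was below 0 without the WT spleen or the Csnk2b-deficient lymph node library, and Syvn1 above 0 without the same libraries. With 1 library per genotype and tissue, a change shared by both tissues is all that the test can call, and genes with few reads, such as Trib3, Asns and Ern1, are limited by depth.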
